A study of Mus musculus with 11 samples.

Results

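The miR-99, miR-100 and miR-125 families were examined in small RNA libraries of mouse spermatogonial progenitor cells (SPCs). The members were the 11 of 1096 mature miRNAs in the deposited tables whose name has the stem miR-99a, miR-99b, miR-100, miR-125a or miR-125b, with either arm of the hairpin included. They come from 6 hairpins, and all 11 exceeded 1.5 TPM (reads per 1000000 reads of a library's own total) in at least 1 library. SPCs are Thy1-selected germ cells of the testis, grown on STO fibroblasts that can no longer divide. The labels of both libraries give strain C57BL/6 and postnatal day 6, whereas the culture methods name B6;129S-Gt(Rosa) 26Sor/J pups aged 6 to 8 days. Control cells (Mov10 Vector in the labels) were taken to carry the empty lentiviral vector shVector. Mov10 knockdown cells were taken to carry a vector with 1 short hairpin RNA, shMov10-832, against the RNA helicase Mov10. The methods name both vectors for the RNA-seq libraries, and the labels of the small RNA libraries do not name the hairpin. A small RNA library does not measure Mov10 mRNA, so the depletion was not checked here. Each group is represented by 1 small RNA library, and whether the triplicates named in the methods were pooled is not given in the sources used here. No value therefore has a replicate error, and each test below compares the reads of 2 libraries, not 2 conditions. Feeder cells were present in both cultures, and in RNA from whole cultures fewer cells of a type cannot be told apart from less miRNA per cell.

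miRNAs are cut from hairpins in longer primary transcripts by Drosha and then Dicer, and usually 1 arm of the hairpin (5p or 3p) is kept in an Argonaute protein while the other is degraded. Bases 2 to 8 of the mature form, the seed, pair with target mRNAs. miR-125 is the vertebrate relative of lin-4, the founding miRNA of the worm developmental timing pathway, and miR-99 and miR-100 belong to the ancient miR-10 superfamily. In vertebrates several of their hairpins lie beside let-7 hairpins, and cluster members can be cut from 1 primary transcript.

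All 11 mature sequences were found in RefSeq (GRCm38.p6). The 5p forms are shown because they carry most of the reads and fall into only 2 seed groups, with the seed in capitals.

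miR-99a-5p: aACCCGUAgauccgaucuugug

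miR-100-5p: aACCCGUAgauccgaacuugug

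miR-99b-5p: cACCCGUAgaaccgaccuugcg

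miR-125a-5p: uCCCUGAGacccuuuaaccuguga

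miR-125b-5p: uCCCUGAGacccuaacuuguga

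Counted from the 5′ end, miR-100-5p and miR-99a-5p differ by A16U alone (base of miR-100-5p first), and miR-99a-5p and miR-99b-5p differ at 4 positions (A1C, U11A, U16C and U21C, base of miR-99a-5p first). miR-125a-5p is 24 nt long and miR-125b-5p 22 nt, and they share their first 13 bases. The 3p forms differ more. They are shown next, with the seed in capitals, because the largest differences between the libraries were on this arm.

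miR-99a-3p: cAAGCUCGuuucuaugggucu

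miR-99b-3p: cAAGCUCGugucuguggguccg

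miR-100-3p: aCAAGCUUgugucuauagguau

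miR-125a-3p: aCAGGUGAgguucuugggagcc

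miR-125b-1-3p: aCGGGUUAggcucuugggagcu

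miR-125b-2-3p: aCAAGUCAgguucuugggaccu

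Only miR-99a-3p and miR-99b-3p share a seed on this arm. None of the 11 sequences was identical to, or contained in, that of another of the 908 miRNAs of the tables with a RefSeq sequence. The reads had been mapped without mismatch, so miR-99a-5p and miR-100-5p were counted apart by 1 base.

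The 6 hairpins lie in 3 clusters of GRCm38, all on the plus strand. On chromosome 17, Mir99b (17830188 to 17830257), Mirlet7e (17830352 to 17830444) and Mir125a (17830812 to 17830879) lie within Spaca6 in GENCODE vM21. Mir99b and Mirlet7e are intronic there, and Mir125a overlaps an exon of 1 of the 3 Spaca6 transcripts over it. On chromosome 16, Mir99a (77598936 to 77599000), Mirlet7c-1 (77599657 to 77599750) and Mir125b-2 (77646273 to 77646343) lie in introns of Mir99ahg, a noncoding host gene. On chromosome 9, Mir100 (41531425 to 41531504), Mirlet7a-2 (41536716 to 41536811) and Mir125b-1 (41581926 to 41582002) lie in introns of the noncoding gene 3110039I08Rik. The chromosome 17 cluster is the one in which every mature form has 1 hairpin. miR-125b-5p is given by both Mir125b-1 and Mir125b-2, and let-7a-5p and let-7c-5p each have a second hairpin elsewhere, so these rows cannot be assigned to 1 cluster.

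The control library had 9628835 reads on miRNAs and the knockdown library 2794593, out of library totals of 10518277 and 3194363 reads. A read was worth 0.0951 TPM in the control and 0.313 TPM in the knockdown, and the limit set by 3 reads was 0.285 and 0.939 TPM. Intervals are 95% and cover counting error only, because reads amplified by PCR without molecular identifiers are not independent molecules.

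The 5p forms of these families were abundant in SPC cultures. The 11 members took 2.42% of the miRNA reads in the control library (95% Wilson interval 2.41 to 2.43%) and 3.05% in the knockdown library (3.03 to 3.07%). With the deposited TPM all 11 had a higher level in the knockdown library, by 1.01- to 3.08-fold, and all 11 turned to a lower read number when both libraries were divided by 1 common total. By the exact binomial test at an adjusted p-value of 0.05, 8 of the 11 members were higher in the knockdown library and 0 were lower, and the numbers at an unadjusted p-value of 0.05 were also 8 and 0. Among all 1096 miRNAs, 10.7% were higher and 21.4% lower by this test. Power grows with depth, and among the 211 miRNAs with at least 1000 control reads 29.4% were higher. The 8 called members are not matched to these, since miR-99a-3p and miR-100-3p had fewer control reads than that. Conversely, miR-99a-5p and miR-99b-3p had at least 1000 control reads and were not called. By size, 3 of the 11 members were raised over 1.5-fold and 0 reduced, against 15.8% raised and 41.5% reduced among the 607 miRNAs above 1.5 TPM. The median log2 fold change was 0.26 over the 11 members and -0.37 over the 607 miRNAs.

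**Figure D1:**
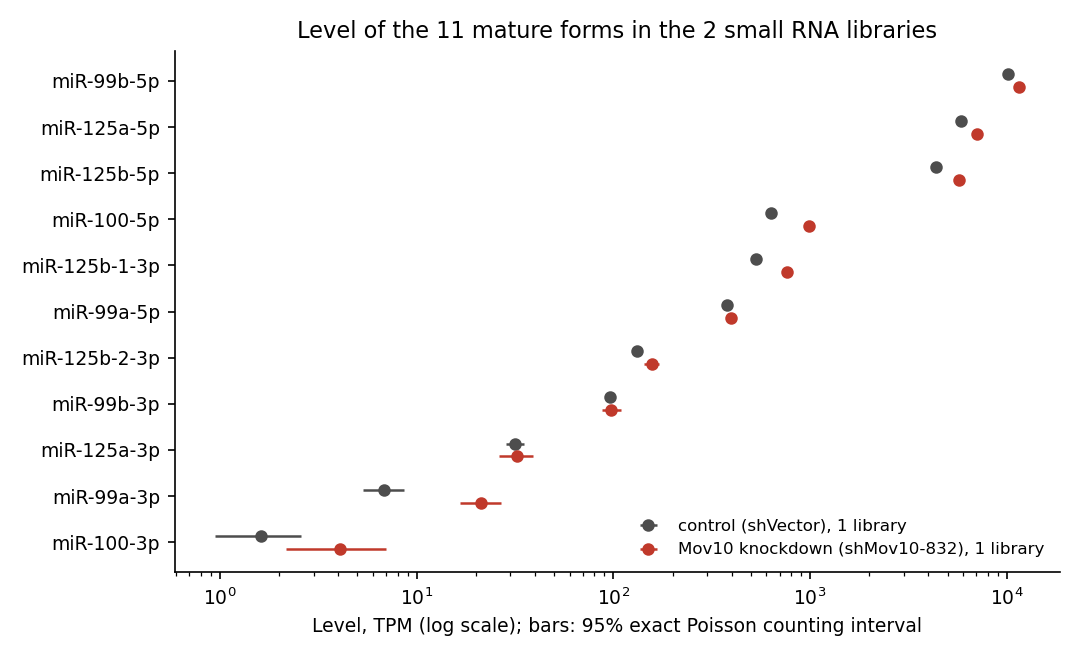
Level in TPM (log axis) of the 11 mature forms in the control and the Mov10 knockdown library, 1 library each, with 95% exact Poisson counting intervals. miR-99b-5p is highest in both libraries (10109 and 11497 TPM), and the gap between libraries is widest for miR-99a-3p (6.85 and 21.3 TPM).

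miR-99b-5p was the most abundant member. It had 106329 reads in control and 36725 in knockdown SPCs, or 10109 and 11497 TPM. It ranked 24th of all miRNAs in the control and 20th in the knockdown. Its log2 fold change was 0.19 (0.17 to 0.20, adjusted p = 5.1e-97, exact binomial test), a small difference that counting error does not cover at this depth. miR-99a-5p, which has the same seed, had 3985 and 1262 reads, or 379 and 395 TPM. This difference of 0.06 on the log2 scale was within counting error (-0.03 to 0.15, adjusted p = 0.44, exact binomial test). miR-100-5p had 6672 and 3146 reads, or 634 and 985 TPM. Its log2 fold change of 0.63 (0.57 to 0.70, adjusted p = 9.3e-86, exact binomial test) was the only one above 1.5-fold among the 5 forms of the 5p arm.

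The miR-125 forms of the 5p arm were also higher with the deposited TPM, and lower with 1 common total. miR-125a-5p had 61643 and 22488 reads, or 5861 and 7040 TPM, and a log2 fold change of 0.26 (0.24 to 0.29, adjusted p = 8.9e-118, exact binomial test). miR-125b-5p had 46020 and 18231 reads, or 4375 and 5707 TPM, and a log2 fold change of 0.38 (0.36 to 0.41, adjusted p = 2.3e-193, exact binomial test). Both kept a similar place among all miRNAs, at ranks 32 and 28 for miR-125a-5p and 36 and 32 for miR-125b-5p in the control and the knockdown.

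The 6 forms of the 3p arm spanned a wider range of differences. miR-99a-3p had nearly as many reads in the shallower library, 72 for control and 68 for knockdown SPCs, or 6.85 and 21.3 TPM. Its 3.08-fold difference was the largest of the 11 members, with a log2 fold change of 1.62 (1.14 to 2.14, adjusted p = 4.1e-10, exact binomial test). Of the 607 miRNAs above 1.5 TPM, 97.2% had a lower log2 fold change. miR-100-3p had only 17 and 13 reads, or 1.62 and 4.07 TPM, and its log2 fold change of 1.28 carried a wide interval (0.17 to 2.46, adjusted p = 0.048, exact binomial test).

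The remaining 3p forms differed less. miR-125b-1-3p, the more abundant of the miR-125b 3p forms, had 5594 and 2445 reads, or 532 and 765 TPM, and a log2 fold change of 0.53 (0.46 to 0.59, adjusted p = 1.7e-47, exact binomial test). miR-125b-2-3p had 1382 and 502 reads, or 131 and 157 TPM, and a log2 fold change of 0.26 (0.11 to 0.41, adjusted p = 0.0028, exact binomial test). miR-99b-3p had 1014 and 312 reads, or 96.4 and 97.7 TPM. miR-125a-3p had 333 and 103 reads, or 31.7 and 32.2 TPM. For these last forms, from the chromosome 17 cluster, the intervals of the log2 fold change ran from -0.17 to 0.20 and from -0.31 to 0.35, so that neither library could be called higher.

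Rows with a let-7 stem found in these clusters were compared with the members. Among them, let-7a-1-3p and let-7c-2-3p come only from hairpins outside the clusters. Of the 8 rows with the stem let-7a, let-7c or let-7e, all were above 1.5 TPM, 4 were raised over 1.5-fold and 0 reduced with the deposited TPM, although all 8 had fewer reads in the knockdown library. By the exact binomial test adjusted over all miRNAs, 4 were higher, among them let-7c-2-3p, and 0 lower. Their median log2 fold change was 0.67, against 0.26 for the members and -0.37 for the 607 miRNAs. let-7c-5p had 21029 and 11665 reads, or 1999 and 3652 TPM, and a log2 fold change of 0.87 (0.84 to 0.90). let-7a-5p had 28456 and 14659 reads, or 2705 and 4589 TPM, and a log2 fold change of 0.76 (0.73 to 0.79). let-7e-5p had 12950 and 5846 reads, or 1231 and 1830 TPM, and a log2 fold change of 0.57 (0.53 to 0.62). In both libraries let-7e-5p had fewer reads than miR-99b-5p and miR-125a-5p of its cluster, but reads of different miRNAs also depend on how well each sequence is ligated and amplified, so their levels were not compared further.

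**Figure D2:**
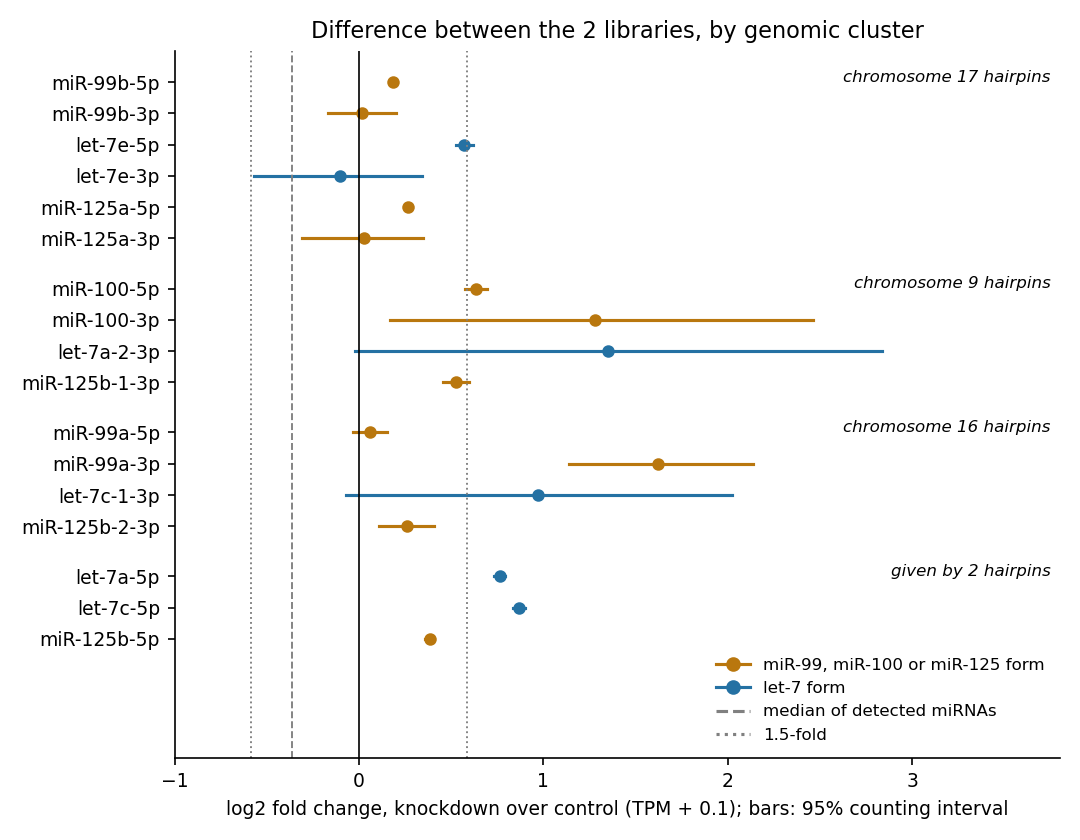
log2 fold change of TPM + 0.1, knockdown over control, for the members and for let-7 forms given by their clusters, grouped by chromosome, with 95% counting intervals. The let-7 5p forms (0.57 to 0.87) lie to the right of the miR-99 and miR-125 5p forms of the same clusters (0.06 to 0.38). miR-100-5p (0.63) lies within the let-7 range, left of let-7a-5p (0.76). All of these 5p forms lie right of the median of the 607 detected miRNAs (-0.37). With 1 common total for both libraries all points of the figure lie below 0, and let-7e-3p (-0.10) lies above 0 with the median ratio (0.15) and TMM (0.11).

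Ratios between miRNAs do not depend on the library totals, so neighbours within 10 kb were compared by an exact 2 by 2 test of their reads, each hairpin represented by its form with the most control reads. All 5 pairs that include a member differed, against 36.4% of the 1059 pairs in the tables. Pairs are of hairpins, so the same 2 mature forms can be counted more than once where several hairpins of a cluster give them. The member pairs are deeply sequenced, and among the 271 pairs with at least 1000 control reads on both forms 71.6% differed, with a median absolute difference of 0.75 on the log2 scale (quartiles 0.11 and 0.96). That median is a rough yardstick for the same reason. In the chromosome 17 cluster, whose forms each have 1 hairpin, miR-99b-5p differed from let-7e-5p in its log2 fold change by -0.39 (-0.43 to -0.34, adjusted p = 2.1e-53, exact test). The let-7e-5p value was 0.31 higher than that of miR-125a-5p (0.26 to 0.36, adjusted p = 1.3e-31, exact test). Between miR-99b-5p and miR-125a-5p, at either end of this cluster, the difference was only -0.08 (-0.11 to -0.05, adjusted p = 1.8e-07, exact test). On the 5p arm the middle form thus differed more from the outer ones than these did from each other, although both of its differences were below the median of 0.75 for deeply sequenced pairs. The 3p arm did not show this order, since the log2 fold change of let-7e-3p was -0.10 (-0.57 to 0.34), against 0.02 for miR-99b-3p and 0.03 for miR-125a-3p.

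On the 5p arm the other clusters showed the same order for let-7 and the miR-99 or miR-100 neighbour, with unequal sizes. miR-99a-5p differed from let-7c-5p by -0.81 (-0.91 to -0.71, adjusted p = 3.0e-62, exact test), the largest of the 5 differences. miR-100-5p differed from let-7a-5p by only -0.13 (-0.20 to -0.06, adjusted p = 9.1e-04, exact test). In both comparisons the let-7 form is also produced from a hairpin outside the cluster. The hairpin-specific let-7 3p forms were rare, with 23 control and 14 knockdown reads for let-7c-1-3p and 11 and 9 reads for let-7a-2-3p. Neither passed the exact binomial test with the deposited TPM (adjusted p = 0.14 and 0.094), and both did with the median ratio (adjusted p = 0.041 and 0.036) and TMM (0.046 and 0.041). The log2 fold change was 0.97 (-0.07 to 2.02) for let-7c-1-3p, below the 1.62 of miR-99a-3p. For let-7a-2-3p it was 1.35 (-0.02 to 2.84), against 1.28 for miR-100-3p. Intervals this wide do not settle an order on the 3p arm.

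The Mir125b hairpins lie more than 10 kb from the rest of their clusters, and extending the limit to 50 kb added 3 pairs with members. All 8 member pairs then differed, against 35.3% of 2920 pairs of any depth and 70.5% of the 596 pairs with at least 1000 control reads on both forms, as all 8 had. These pairs are again counted by hairpin. miR-99a-5p and miR-125b-5p differed by -0.32 (-0.42 to -0.23, adjusted p = 1.4e-10, exact test), and the log2 fold changes of let-7a-5p and let-7c-5p were 0.38 and 0.49 higher than that of miR-125b-5p (adjusted p = 3.9e-83 and 2.1e-116, exact test). Because miR-125b-5p sums Mir125b-1 and Mir125b-2, its 3p forms were used to separate the chromosomes. miR-125b-1-3p (chromosome 9) was more abundant in both libraries than miR-125b-2-3p (chromosome 16), and its log2 fold change was 0.27 higher (0.10 to 0.43, adjusted p = 0.0050, exact test). Of the 12 pairs of hairpin-specific forms of 1 stem and arm in the tables, 41.7% differed.

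Forms that share a seed differed from each other. There were 173 same-seed pairs in the tables with at least 10 reads on each form over both libraries. By the exact 2 by 2 test 60.7% of them differed, and 7 of 7 pairs with a member did. Most of the member pairs were sequenced far more deeply than the minimum of 10 reads, and no share was computed for pairs of like depth. The 7 of 7 therefore cannot be read as a trait of the members. miR-100-5p, which differs from miR-99a-5p by the single base named above, was 0.57 higher in its log2 fold change (0.46 to 0.68, adjusted p = 1.5e-24, exact test). It was 0.45 higher than miR-99b-5p (0.39 to 0.51, adjusted p = 1.4e-41, exact test). The share of miR-100-5p among the reads of its seed group went from 5.70% in the control (95% Wilson interval 5.57 to 5.84%) to 7.65% in the knockdown (7.40 to 7.91%). miR-99b-5p held most of the group in both libraries, at 90.9% (90.7 to 91.1%) and 89.3% (89.0 to 89.6%). The summed level of the 3 forms was 11122 TPM in the control and 12877 TPM in the knockdown (log2 fold change 0.21, interval 0.20 to 0.23).

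The other 5p seed group holds miR-125a-5p, miR-125b-5p and 1 miRNA that is not a family member, miR-351-5p from the X chromosome. Its sequence is printed to show that it matches the miR-125 forms in its first 8 bases and then departs from them.

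miR-351-5p: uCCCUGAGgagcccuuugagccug

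miR-351-5p had 21753 and 5953 reads, or 2068 and 1864 TPM, with a log2 fold change of -0.15 (-0.19 to -0.11, adjusted p = 4.2e-12, exact binomial test). Its direction depends on the scaling, since the log2 fold change was -0.085 with the sum of miRNA reads, 0.10 with the median ratio, 0.068 with TMM and -1.87 with 1 common total, and it passed the exact binomial test in each. The differences from the miR-125 forms do not depend on the total. The log2 fold change of miR-125a-5p was 0.41 higher than that of miR-351-5p (0.37 to 0.46, adjusted p = 1.7e-68, exact test), and that of miR-125b-5p was 0.53 higher (0.49 to 0.58, adjusted p = 1.0e-106, exact test). The share of miR-351-5p in the seed group went from 16.8% (16.61 to 17.01%) to 12.8% (12.5 to 13.1%), and that of miR-125b-5p from 35.6% (35.3 to 35.8%) to 39.1% (38.6 to 39.5%). Summed over the 3 forms, the level was 12304 TPM in the control and 14611 TPM in the knockdown.

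The use of the hairpin arms was compared by setting the 5p reads of each stem against its 3p reads. Of the 215 stems with at least 10 reads on each arm over both libraries, 29.8% differed between the libraries, and of the 5 member stems 2 did. In the miR-99a stem the 3p share was 1.77% in the control (72 of its reads) and 5.11% in the knockdown (68 reads), whereas the 5p share was 98.2% (97.8 to 98.6%) and 94.9% (93.6 to 95.9%). The log2 ratio of 5p to 3p reads in the knockdown differed from that in the control by -1.58 (-2.06 to -1.09, adjusted p = 6.5e-09, exact test). In the miR-125b stem, where the 3p arm is well represented, the 3p share of both hairpins together was 13.16% and 13.92%. This small difference also passed the test (-0.09, -0.16 to -0.03, adjusted p = 0.024, exact test).

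The other stems gave no such difference. The 5p share of miR-99b was 99.1% and 99.2%, that of miR-125a 99.5% and 99.5%, and that of miR-100 99.7% and 99.6% in the control and the knockdown. Their log2 differences of 5p to 3p had intervals from -0.02 to 0.35, from -0.08 to 0.56 and from -1.74 to 0.35, the last of which rests on 17 and 13 reads of miR-100-3p. In the chromosome 17 cluster, the let-7e stem differed in the opposite sense to miR-99a, with a 3p share of 1.45% and 0.915% (log2 difference of 5p to 3p 0.68, 0.24 to 1.11, adjusted p = 0.0091, exact test).

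**Figure D3:**
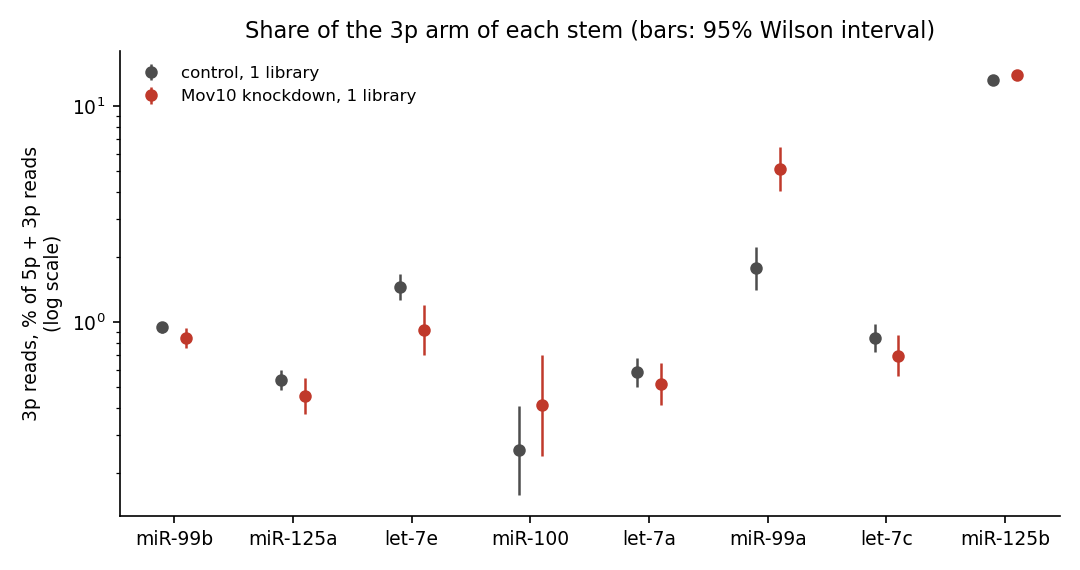
Share of 3p reads among the 5p and 3p reads of each stem (log axis) in the control and the knockdown library, with 95% Wilson intervals. The miR-99a intervals lie apart (1.77% and 5.11%), those of miR-99b, miR-125a and miR-100 overlap, and miR-125b has the highest 3p share (13.16% and 13.92%).

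Markers of the cell types that the cultures could hold also differed between the libraries, although all of them had fewer reads in the knockdown. Of 10 miRNAs typical of fibroblasts and other mesenchymal cells, all were above 1.5 TPM, 8 had a higher TPM in the knockdown and 2 were raised over 1.5-fold (9 and 6 with the median ratio or TMM, 0 and 0 with 1 common total), and their summed level was 174521 TPM in the control and 270581 TPM in the knockdown. The most abundant of them were miR-21a-5p, miR-22-3p and miR-10b-5p, with log2 fold changes of 1.04, 0.48 and 0.45. The 2 with a lower TPM were miR-214-3p (-0.42) and miR-145a-5p (-0.20). Much of the summed level was miR-21a-5p, at 51967 TPM in the control and 107056 TPM in the knockdown. The paper names miR-21a among miRNAs with a role in SPC fate and reported it reduced after knockdown by RT-qPCR, a different scale. It also reported less miR-21a primary transcript, and many reduced but few raised miRNAs over 1.5-fold in its small RNA sequencing. Here 252 miRNAs were reduced and 96 raised with the deposited TPM, and 561 and 10 with 1 common total. Only the latter comes near the paper's imbalance. The median over the 10 fibroblast and mesenchymal miRNAs was 0.47, and its range was -0.42 to 1.31. Of 13 germ and pluripotent cell miRNAs in the tables, 12 had a lower TPM in the knockdown and 8 were reduced over 1.5-fold (11 and 2 with the median ratio, 11 and 3 with TMM, 13 and 13 with 1 common total), and their summed level was 215273 and 157938 TPM. The exception with the deposited TPM was miR-34c-5p, with a log2 fold change of 0.89. Much of the summed germ and pluripotent level was miR-182-5p, at 142065 TPM in the control and 103395 TPM in the knockdown, not reduced over 1.5-fold. Next was miR-871-3p, at 49591 and 28515 TPM, which was reduced over 1.5-fold. Among the 607 miRNAs above 1.5 TPM, 216 had a higher and 391 a lower deposited TPM, and 15.8% were raised and 41.5% reduced over 1.5-fold. These shares were 23.7% and 31.5% with the median ratio. They were 23.5% and 32.6% of the 616 miRNAs above 1.5 TPM with TMM, and 1.72% and 96.6% of the 581 with 1 common total. No marker of either list was at 0 reads in either library. The part of cell composition in the levels of the members was not tested.

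The direction of every member depends on the library total. With the deposited TPM the 11 log2 fold changes ran from 0.02 to 1.62, and other scalings with a separate total or factor for each library shifted them upward by 0.07 (sum of miRNA reads), 0.22 (TMM) or 0.25 (median ratio). With 1 common total they ran from -1.70 to -0.08, because the knockdown total is 0.304 times that of the control. The order of the members among themselves and their place above the median of the 607 miRNAs stayed as they were in these settings. A change of totals adds nearly the same shift to every log2 fold change, so this was all but fixed in advance.

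**Figure D4:**
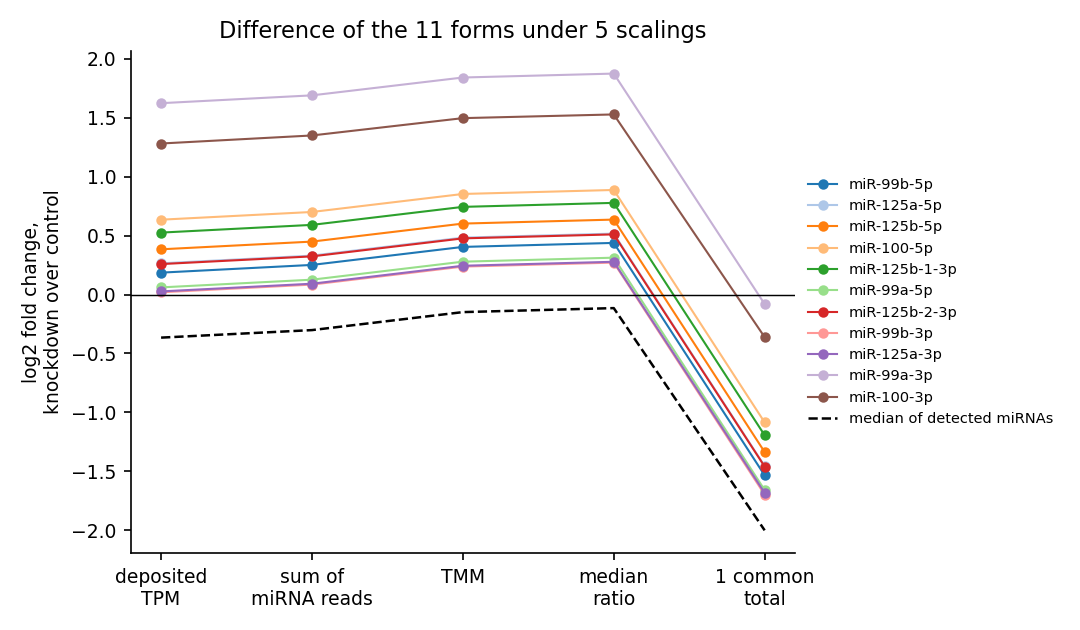
log2 fold change, knockdown over control, of the 11 members under 5 ways of scaling the libraries, with lines joining the values of 1 miRNA and a dashed line for the median of the 607 miRNAs above 1.5 TPM. The members lie above the median in each setting and above 0 in 4 of the 5, and with 1 common total all 11 lie below 0.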

How the data were processed

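Small RNA libraries of control and Mov10 knockdown SPCs (1 each) were analysed, and the RNA-seq and CLIP-seq samples were not used here. The authors trimmed adaptors and filtered rRNA with Fastx, then mapped reads to miRBase with CLC Genomics Workbench, allowing no mismatch. They deposited raw read counts per mature miRNA and a TPM value, which equals reads per 1000000 of a library total without length correction. The counting rule for a mature sequence that several hairpins share is not given in the sources used here.

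From these values, log2 fold changes of TPM + 0.1 and exact Clopper-Pearson intervals of the plain ratio were computed. Calls required over 1.5-fold and over 1.5 TPM in the higher library. For each of the 1096 miRNAs, the split of its reads between the libraries was set against the split of the totals (exact binomial, two-sided). Arms, cluster neighbours within 10 kb, same-seed forms and hairpin-specific forms were compared by exact 2 by 2 tests. All p-values were adjusted by Benjamini-Hochberg over the whole table or all pairs of a kind at 0.05. The members, lists and tests were chosen with earlier results of these data known, and the same-seed and hairpin-specific pairs, the backgrounds at 1000 reads and the scalings of miRNAs other than the members were added after seeing the data. The miRNAs named are the members, their let-7 neighbours, the same-seed miRNAs, the markers and the 3 miRNAs most like miR-99b-5p.

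Hairpins were placed with RefSeq (GRCm38), which gave 743 of 783, and a mature sequence was available for 908 miRNAs. In simulated Poisson counts for 1096 miRNAs, of which 200 differed 2-fold, the test called 66 of these and 4 of 896 unchanged ones. Among the 70 changed miRNAs with at least 100 reads it called 63. The simulation held counting error only, as the test assumes, so these numbers do not describe variation between real libraries. R 4.3.3 with edgeR 4.0.16 gave the TMM factors, and all other steps used scipy 1.17.1, pandas 2.3.3 and numpy 2.4.6 in Python 3.11.15.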

Additional observations from a re-analysis of the deposited data

How the results depend on the processing

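No paired analysis was possible because there is 1 library on either side. These alternatives were fixed with earlier results known. With 1 common total for both libraries, all 11 members turned to a lower value in the knockdown. The log2 fold change was then -1.53 for miR-99b-5p, -1.45 for miR-125a-5p, -1.34 for miR-125b-5p, -1.08 for miR-100-5p, -1.19 for miR-125b-1-3p, -1.66 for miR-99a-5p, -1.46 for miR-125b-2-3p, -1.70 for miR-99b-3p, -1.68 for miR-125a-3p, -0.081 for miR-99a-3p and -0.36 for miR-100-3p. In that setting 0 members were raised and 9 reduced over 1.5-fold, against 1.72% raised and 96.6% reduced of the 581 miRNAs above 1.5 TPM in it. By the exact binomial test 0 members were higher and 9 lower, against 0.912% and 55.4% of all 1096 miRNAs. This follows from the knockdown total, which is 0.304 times that of the control. Scaling by the median ratio or by TMM raised the number over 1.5-fold from 3 to 5, and the share over all miRNAs went from 15.8% to 23.7% or 23.5%. Extending clusters to 50 kb raised the number of differing member pairs from 5 to 8, since more pairs were tested. Calls of miR-99a-5p and miR-99b-3p by the exact binomial test depend on the scaling: miR-99a-5p passed with the sum of miRNA reads (0.13), the median ratio (0.31) and TMM (0.28), and miR-99b-3p with the last 2 (0.27 and 0.24). Other pseudocounts, minima, a 2-fold limit, other arm minima and sums over all forms of a stem left each count within 1.5 times its value. miR-100-3p rests on 17 and 13 reads, and changes of this size are near the limit of what the knockdown depth can show.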

Other observations

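Over the 2 libraries, the levels most like those of miR-99b-5p among all other miRNAs were those of let-7f-5p (8606 and 12853 TPM in the control and the knockdown), miR-881-3p (13487 and 11075 TPM) and miR-871-5p (12510 and 9259 TPM). Their distances from miR-99b-5p in log2 TPM over the 2 libraries were 0.28, 0.42 and 0.44. let-7f-5p was higher in the knockdown, as miR-99b-5p was, whereas miR-881-3p and miR-871-5p, miRNAs of an X-linked cluster expressed in the testis, were lower, with log2 fold changes of -0.28 and -0.43. With 2 libraries, likeness in level does not separate these patterns.

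Among the let-7 rows, let-7a-1-3p and let-7c-2-3p have the same mature sequence in RefSeq. The tables list 156 control reads for each, and 67 and 68 reads in the knockdown. They are hence not independent entries among the 8 let-7 rows, whereas miR-125b-5p, which also has 2 hairpins, is listed as 1 row.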
